A study of Canis lupus familiaris with 28 samples.

Results

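NEU1, ARSA, FUCA2, IGF2R and CD63 were the lysosomal genes taken for this account, 3 enzymes of the lysosomal and secretory route and 2 membrane proteins, 5 of the 32704 gene identifiers in the deposited counts. They were chosen by symbol from the names that the study's supplementary tables pair with Ensembl identifiers, and all 5 had a name and passed the filter on low counts in every comparison. The identifiers were ENSCAFG00000000642 for NEU1, ENSCAFG00000000566 for ARSA, ENSCAFG00000000309 for FUCA2, ENSCAFG00000000691 for IGF2R and ENSCAFG00000000064 for CD63. The members are single genes from different pathways of the organelle and do not form a complex.

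The study sequenced RNA of canine histiocytic sarcoma (HS), a malignancy of macrophages and dendritic cells, to find which genes differ from unaffected samples. The tumors were 18 from Bernese Mountain Dogs (BMDs), 15 labelled HS and 3 labelled hemophagocytic histiocytic sarcoma (HHS), a subtype whose cells take up blood cells. By site, 6 tumors were from the lung, 4 from the liver, 2 from the spleen, 3 from the thorax, 2 from a limb and 1 from a lymph node. The controls were blood of 3 unaffected BMDs and 1 spleen, 1 lung and 1 liver of German Shepherd Dogs (GSDs). Cultured cells were the HS cell lines BD and OD (BMD) and PJ (Rottweiler), each 1 library, and DC3F9, dendritic cells grown from the blood monocytes of 1 mongrel dog with GM-CSF and IL-4. Each tumor or control library came from its own sample, and p-values measure the spread between these samples.

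Lysosomes are the acidic compartments in which cells break down glycans, lipids and proteins, and they are abundant in macrophages and dendritic cells, which degrade what they engulf. Most of their hydrolases are made in the endoplasmic reticulum, tagged with mannose 6-phosphate in the Golgi and carried by receptors to endosomes. Integral membrane proteins and tetraspanins reach the same compartment by sorting signals in their tails.

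Depth was 99701394 to 171815073 counts per tumor, 133524755 to 171816341 for the 5 controls used in the tests, 180801439 for the liver control, and 82007857 to 131518875 for the cultured cells. The liver control had a TMM factor (edgeR's correction of library size for composition) of 0.368, against 0.761 to 1.34 for the tumors and the other controls. It was left out of the tests, as in the study's own comparison. The 6 hepatocyte markers summed to 6969 CPM in the liver control (CPM, counts scaled to a common library total), against 1.25 to 109 in the tumors, and the alveolar marker AGER reached 1982 CPM in the lung control, against 1.27 to 57.4 in the tumors. The blood libraries carry another flow cell name than every tumor and tissue library, so that blood, breed and flow cell cannot be told apart among the controls. The tumors HS27 (lung) and HS29 (spleen) stood apart on the first principal component of the tumors, at -139.9 and -172.0 against -75.6 to 82.2 for the other 16, and values without them are given where a member or a count moved.

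Compared with the 5 controls, the tumors had 4.61-fold more FUCA2 RNA, a change that passed the test. CD63 was 4.63-fold higher but missed the p cutoff, and NEU1, ARSA and IGF2R overlapped the controls without passing either cutoff. The cutoffs were a log2FC beyond 1.5 in either direction with an adjusted p below 0.0005 in edgeR's quasi-likelihood test, which called 2.77% of 19430 genes (539), and 0.865% as higher in tumors. FUCA2 was thus the 1 member of 5 that was called. With an adjusted p cutoff of 0.05, at which 17.8% of all genes were called, FUCA2 and CD63 were called. The median log2FC of the 5 members was 0.75, beside -0.0056 for all genes tested. In tissue, fewer cells of a type and less RNA per cell cannot be told apart.

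**Figure D1:**
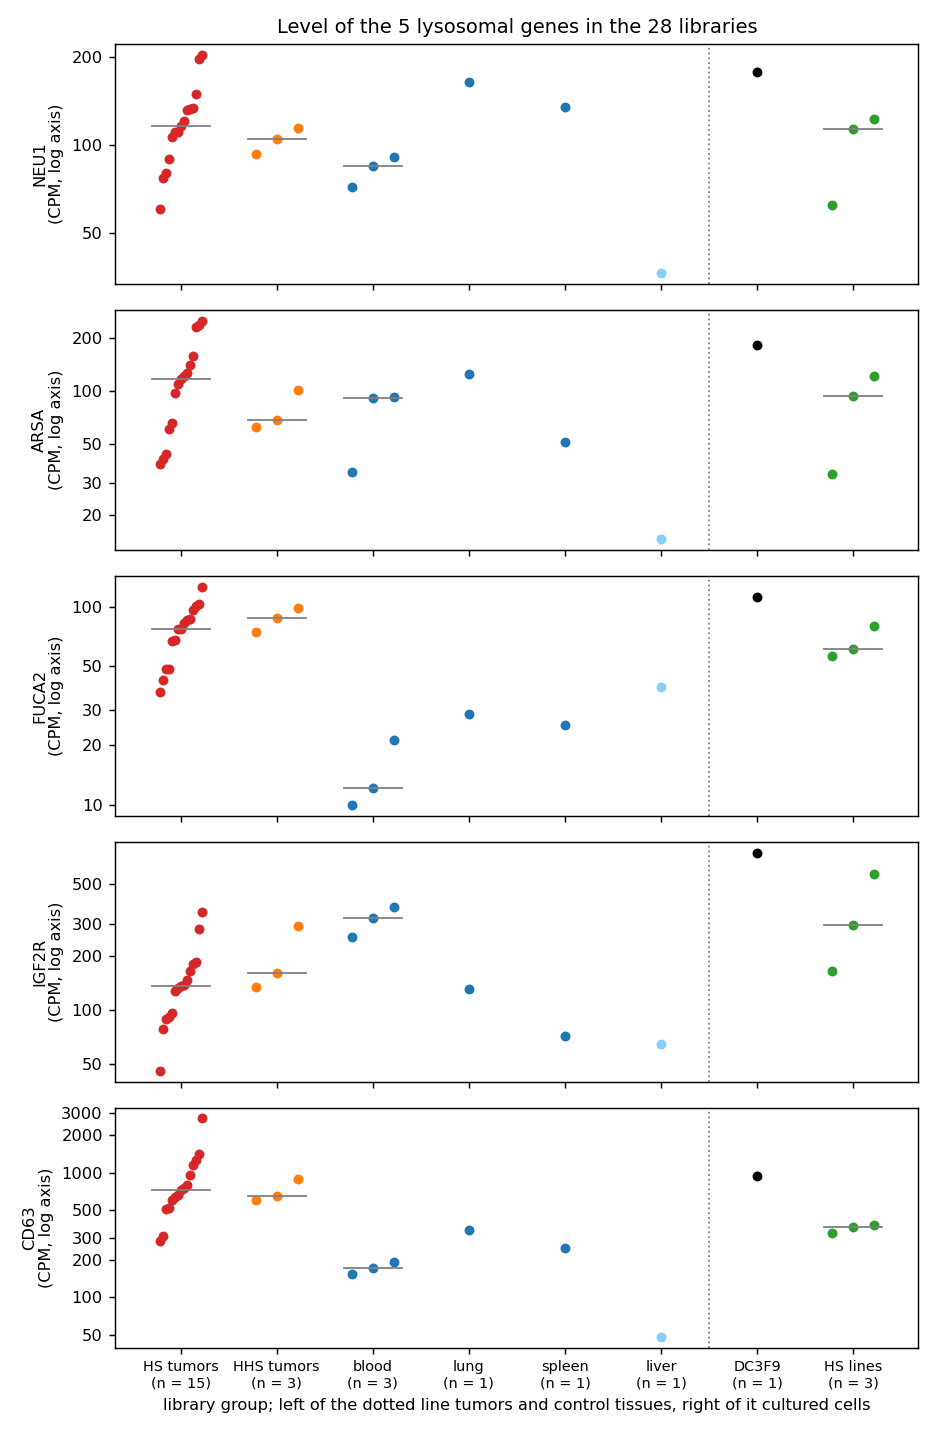
Level of NEU1, ARSA, FUCA2, IGF2R and CD63 in CPM by library total (log axis), 1 point per library and a grey line at the median of groups of 3 or more; tumors and tissues were counted in another table than the cultured cells. The 18 tumors lie above the 5 controls used in the tests (blood, lung, spleen) in FUCA2, 37.0 to 126 against 9.98 to 28.6 CPM, and DC3F9 lies above the 3 HS cell lines in each panel.

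NEU1, the lysosomal sialidase that removes terminal sialic acid from glycoproteins and glycolipids, was at 60.4 (HS14), 113 (median) and 204 CPM (HS4) over the 18 tumors. The 3 blood controls had 72.2, 85.0 and 91.1 CPM, the spleen control 135, the lung control 164 and the liver control 36.5 CPM. Most tumors thus lay between blood and the spleen and lung controls, with overlap on both sides, and all lay above the liver control (10 of 18 after TMM scaling), and 2 tumors (6 after TMM scaling) exceeded all 5 controls. By edgeR's quasi-likelihood test the log2FC against the 5 controls was 0.31 (SE 0.26, 95% confidence interval -0.23 to 0.84, adjusted p = 0.396). Against blood alone it was 0.59 (SE 0.33), and against spleen and lung, which share the tumors' flow cell, it was -0.062 (SE 0.38), so the sign turned with the controls. The median of all genes itself stood at 0.44 against blood and at 0.078 against spleen and lung.

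ARSA, arylsulfatase A, which removes sulfate from the myelin lipid sulfatide, varied more. It was at 38.8 (HS48), 105 (median) and 249.6 CPM (HS4) in the tumors, with HS29 at 236 and HS27 at 229.6 CPM next to the top. The blood controls had 34.9, 91.8 and 92.3 CPM, the spleen control 51.7, the lung control 126 and the liver control 14.5 CPM. Tumors and controls overlapped over most of their range, and 6 tumors (10 after TMM scaling) exceeded all 5 controls. The log2FC of ARSA was 0.75 (SE 0.45, interval -0.18 to 1.69, adjusted p = 0.222 in edgeR's quasi-likelihood test) and 0.41 (SE 0.37) without HS27 and HS29. It was 0.77 against blood and 0.70 against spleen and lung, values within 1 SE of each other.

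FUCA2, an alpha-L-fucosidase that removes fucose from glycans and is known as the enzyme's plasma form, was at 37.0 (HS37), 79.9 (median) and 126 CPM (HS36) in the tumors. The blood controls had 9.98, 12.1 and 21.3 CPM, the spleen control 25.4 and the lung control 28.6 CPM. Every tumor lay above each of these 5 controls on both scalings, while groups without overlap made up 2.64% of 19028 genes, 1.74% with the tumors higher. The log2FC was 2.20 (SE 0.31, interval 1.56 to 2.85, adjusted p = 4.1e-05 in edgeR's quasi-likelihood test), above that of 91.9% of the genes tested. Against blood alone, where edgeR called 6.15% of genes, FUCA2 was called at 2.53 (SE 0.40, adjusted p = 6.8e-05). Against spleen and lung alone, on the tumors' flow cell and with 1.03% of genes called, it was at 1.80 (SE 0.45, adjusted p = 0.0142 in edgeR), past the fold cutoff but not the p cutoff. The call held without each of the 5 controls in turn, with log2FC of 2.02 to 2.33, in fits that called 1.11%, 1.31% and 1.58% of genes without 1 blood control and 2.78% and 2.92% without lung or spleen. It also held without HS27 and HS29, at 2.14 (adjusted p = 1.2e-04 in edgeR, 2.38% of genes called). Over the 3 HHS tumors alone FUCA2 was at 2.26 (SE 0.33, adjusted p = 0.0577 in edgeR), in a fit that called 0 genes and had 3775 at an unadjusted p under 0.05.

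The liver control had 39.5 CPM of FUCA2 by library total but 107 CPM after TMM scaling. On the plain scale 17 of 18 tumors were above it, and on the TMM scale 1 of 18, so the direction against liver depends on the scaling. With all 6 controls in the fit, which called 3.8% of genes, the log2FC of FUCA2 fell to 1.23 (SE 0.40, adjusted p = 0.0243 in edgeR's quasi-likelihood test), and the gene was not called. In the RefSeq annotation of another dog assembly (UU_Cfam_GSD_1.0) FUCA2 overlaps PEX3, a gene of peroxisome assembly, and the strand option of the counting is not stated, so reads of the pair may be shared. PEX3 was at 2.92 to 25.9 CPM in the tumors and 13.2 to 43.2 CPM in the 5 controls, with a log2FC of -0.54 (SE 0.31, adjusted p = 0.2 in edgeR), a sign opposite to that of FUCA2.

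IGF2R, the cation-independent mannose 6-phosphate receptor, carries tagged hydrolases to endosomes and also binds and clears insulin-like growth factor 2. It was at 46.0 (HS27), 136 (median) and 351 CPM (HS48) in the tumors. The blood controls had 255, 326 and 375 CPM, the lung control 132, the spleen control 72.1 and the liver control 64.8 CPM. Blood stood above 15 of the 18 tumors, and 12 tumors stood above both the spleen and the lung control. The log2FC against the 5 controls, -0.53 (SE 0.35, interval -1.25 to 0.19, adjusted p = 0.269 in edgeR's quasi-likelihood test), averages opposite signs. Against blood it was -1.02 (SE 0.35, adjusted p = 0.0296 in edgeR), and against spleen and lung it was 0.86 (SE 0.51, adjusted p = 0.315 in edgeR). IGF2R overlaps a long noncoding RNA locus in the same RefSeq annotation, so that its counts may hold reads of that locus.

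CD63, a tetraspanin of late endosomes, lysosomes and exosomes that is also stored in platelet granules, was at 283 (HS33), 697 (median) and 2727 CPM (HS14) in the tumors. The blood controls had 154, 172 and 191 CPM, the spleen control 247, the lung control 348 and the liver control 48.4 CPM. All 18 tumors were above blood, spleen and liver, and 16 were above the lung control too, the exceptions being HS33 and HS39 (313 CPM). The log2FC was 2.21 (SE 0.51, interval 1.16 to 3.26), and the adjusted p of 0.00289 in edgeR's quasi-likelihood test missed the cutoff of 0.0005. DESeq2, which called 8.86% of genes, gave 2.14 (SE 0.45, adjusted p = 2.4e-05) and called CD63. Against spleen and lung alone CD63 was at 1.88 (SE 0.79, adjusted p = 0.145 in edgeR), and over the 3 HHS tumors alone at 1.76 (SE 0.32, adjusted p = 0.0784 in edgeR).

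Markers of cell types were at different levels in blood, spleen and lung controls, and each list overlapped the tumors in at least 1 of these tissues. The phagocyte and class II lists also mark macrophages and dendritic cells, of which HS is a malignancy, so they do not measure other cells alone. The 5 T and NK cell markers (CD226, THEMIS, IL2RB, TCF7 and IFNG) summed to 519 to 970.1 CPM in blood, 218 in spleen and 24.8 in lung, against 1.89 to 217 with a median of 27.4 CPM in the tumors. The 6 phagocyte markers (CSF2RB, NCF4, LYZ, SLA, RAC2 and NFAM1) summed to 10162 to 13489 CPM in blood, 1557 in spleen and 531 in lung, and to 635 to 7558 CPM in the tumors. LYZ made up most of the sum in these controls, at 7838 to 11892 CPM in blood, 1064 in spleen and 412 in lung. In HS14, the highest tumor, LYZ was at 7222 CPM and the other markers of the list at 38.0 to 112 CPM each. The platelet marker MPIG6B was at 19.6 to 87.2 CPM in blood, 2.21 in spleen and 2.95 in lung, and at 0.179 to 5.92 CPM in the tumors. The B cell marker TNFRSF13C was at 0.352 to 13.2 CPM in the 5 controls and 0.293 to 6.31 in the tumors. It was also at 1.14 to 2.60 CPM in the HS cell lines and 1.74 CPM in DC3F9. The 4 class II antigen presentation genes (DLA-DRA, DLA-DMA, HLA-DRB1 and DLA-DOA) summed to 3216 to 11117 CPM in the 5 controls and 555 to 39318 CPM in the tumors. The 3 endothelial markers (FLT4, PTPRB and NOTCH4) summed to 4.66 to 5.74 CPM in blood, 124 in spleen and 559 in lung, and to 3.97 to 126 CPM in the tumors. The part of these cell types in the fold changes of the members was not tested.

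**Figure D2:**
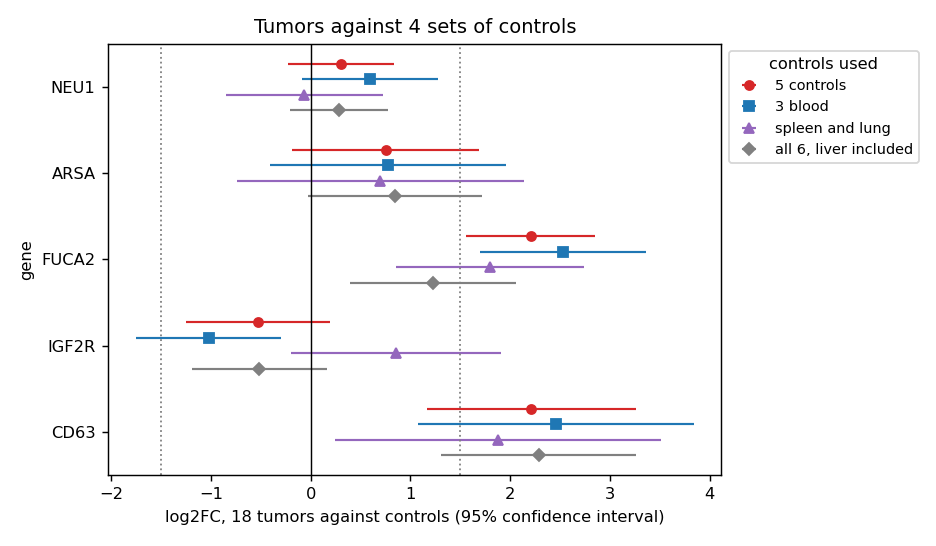
log2FC of the 18 tumors against 4 sets of controls in edgeR, with 95% confidence intervals as bars; dotted lines mark an absolute log2FC of 1.5. FUCA2 and CD63 are above 0 against each set (1.23 to 2.53 and 1.88 to 2.46), while IGF2R changes sign between blood (-1.02) and spleen with lung (0.86).

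Between tumor sites no member passed the test, and IGF2R had the largest log2FC of the 5, with a positive sign for lung over liver tumors. IGF2R in the 6 lung tumors was at 46.0 (lowest), 208 (median) and 351 CPM (highest), and in the 4 liver tumors at 89.0, 91.9, 95.7 and 161 CPM. The lung group held both the lowest tumor (HS27) and the highest (HS48), so the groups overlapped. The log2FC of lung against liver tumors was 0.81 (SE 0.42, interval -0.07 to 1.69, adjusted p = 0.805 in edgeR's quasi-likelihood test) and 1.01 (SE 0.36, adjusted p = 0.672) without HS27 and HS29.

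FUCA2 had the opposite sign, with 48.2, 87.4 and 102 CPM as lowest, median and highest of the lung tumors, and 85.6, 98.6, 100.6 and 126 CPM in the liver tumors. Its log2FC was -0.38 (SE 0.34, interval -1.11 to 0.35, adjusted p = 0.962 in edgeR's quasi-likelihood test). CD63 was at 638, 813 and 1267 CPM in the lung tumors and at 283, 520.0, 608 and 1163 CPM in the liver tumors, a log2FC of 0.34 (SE 0.53, interval -0.78 to 1.45, adjusted p of 1 in edgeR). Without HS27 and HS29 it was 0.068, without the liver tumor HS36 0.91, and without the liver tumor HS33 0.062. The lung and liver tumors overlapped for both genes.

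NEU1 was at 90.0, 111 and 198 CPM (lowest, median, highest) in the lung tumors and at 77.0, 80.6, 114 and 149.5 CPM in the liver tumors. ARSA was at 38.8, 87.3 and 229.6 CPM in the lung tumors and at 41.3, 44.05, 102 and 126 CPM in the liver tumors. HS27 was the highest lung tumor for both. The log2FC of 0.21 for NEU1 (interval -0.60 to 1.02) and 0.40 for ARSA (interval -0.81 to 1.62), each with an adjusted p of 1 in edgeR's quasi-likelihood test, became -0.10 and -0.19 without HS27 and HS29. Without HS36 they were 0.53 and 0.83, without HS33 0.056 and 0.17, and without HS50 0.058 and 0.17. For lung against liver tumors edgeR called 0.0% of 22644 genes and 0 members, with 1421 genes and 0 members at an unadjusted p under 0.05, while DESeq2 called 68 genes (0.3%) and 0 members. Hepatocyte markers summed to 97.9 CPM in the liver tumor HS33 and to 1.32 to 3.88 CPM in the other 3 liver tumors.

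Set beside the control of the same organ, FUCA2 was higher in 6 of 6 lung tumors, 1.68 to 3.58 times on plain CPM and 2.15 to 4.56 times after TMM scaling. CD63 was also higher in 6 of 6, 1.83 to 3.64 times on plain CPM and 2.09 to 6.13 times after TMM scaling. In the spleen, where HS51 and HS29 were at 67.2 and 67.5 CPM against 25.4, FUCA2 was 2.65 and 2.66 times the control on plain CPM, and CD63, at 508 and 804 CPM, was 2.05 and 3.25 times the control. After TMM scaling HS51 and HS29 were 2.50 and 4.03 times the control for FUCA2, and 1.94 and 4.93 times for CD63. NEU1 was below its own organ's control in 5 of 6 lung tumors and in both spleen tumors on plain CPM, and above it in 2 lung tumors and 1 spleen tumor after TMM scaling. In the liver all 5 members were above the control in 4 of 4 tumors on plain CPM, but after TMM scaling the count was 4 for CD63, 2 for NEU1 and ARSA, 1 for FUCA2 and 0 for IGF2R. Each organ has 1 control dog of another breed, so these ratios carry no test.

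The remaining sites held 1 to 3 tumors each. CD63 reached 754, 1415 and 2727 CPM in the 3 thoracic tumors (HS37, HS4 and HS14), and 313 and 606 CPM in the limb tumors from the shoulder (HS39) and the leg (HS34). FUCA2 was at 37.0, 48.2 and 77.0 CPM in the same thoracic tumors (HS37, HS4 and HS14), which include the lowest of all, and at 42.7 (HS39) and 82.5 CPM (HS34) in the limb. By library total, NEU1 ranged from 60.4 to 204 CPM and ARSA from 60.6 to 249.6 CPM within the thorax, with HS14 lowest and HS4 highest for both. On this scale that was the whole range of NEU1 over the 18 tumors. After TMM scaling NEU1 ran from 79.3 (HS14) to 183 CPM (HS4) in the thorax, inside the 70.2 to 250 CPM of the 18 tumors. IGF2R was at 137 to 180.2 CPM in the thorax, 132 and 147 in the limb and 134 in the lymph node, close to the tumor median.

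**Figure D3:**
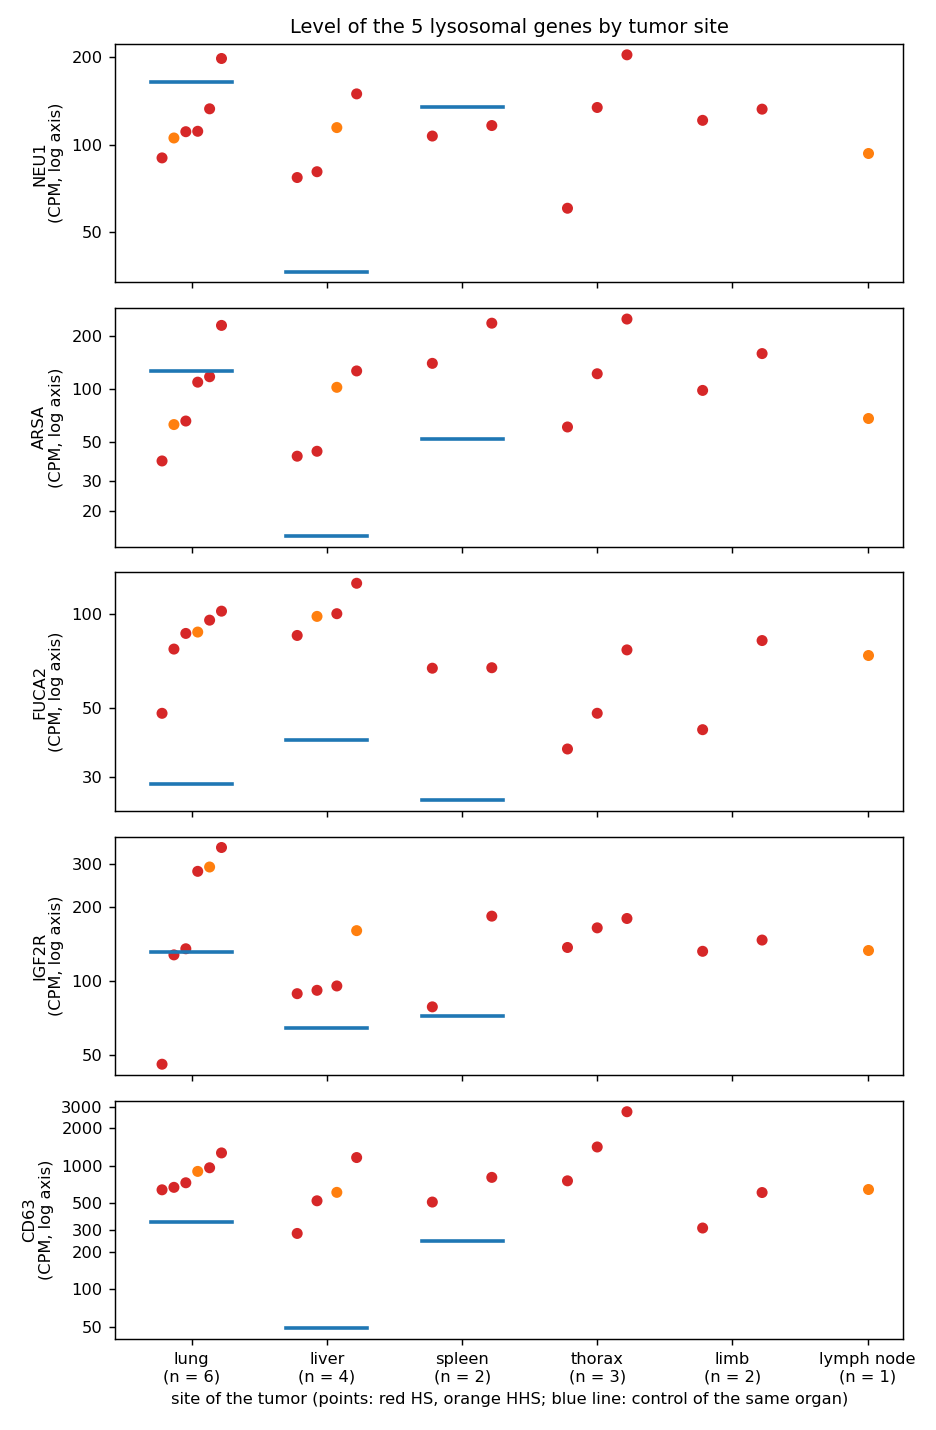
CPM (log axis) of each member by tumor site, 1 point per tumor (red HS, orange HHS), with the control of the same organ as a blue line where there is one. FUCA2 and CD63 lie above the blue lines in the lung, liver and spleen, and the highest CD63, 2727 CPM, is a thoracic tumor.

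Between subtypes, none of the 5 members passed the test, and the 3 HHS tumors lay inside the range of the 15 HS tumors for each. NEU1 was at 93.6, 105 and 114 CPM in HS41, HS53 and HS46, against 60.4, 116 and 204 CPM (lowest, median, highest) in HS. ARSA was at 68.5, 62.5 and 102 CPM in HS41, HS53 and HS46, against 38.8, 117 and 249.6 CPM in HS. FUCA2 was at 74.2, 87.8 and 98.6 CPM, against 37.0, 77.4 and 126 CPM. The HHS tumors thus lay below the HS median for ARSA and NEU1 and on both sides of it for FUCA2, without leaving the HS range.

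IGF2R was at 134, 292 and 161 CPM in HS41, HS53 and HS46, against 46.0, 136 and 351 CPM in HS, and CD63 at 653, 898 and 608 CPM, against 283, 727 and 2727 CPM. In edgeR's quasi-likelihood test the log2FC of HHS against HS was -0.31 for NEU1 (interval -1.02 to 0.41), -0.76 for ARSA (-1.97 to 0.45), 0.10 for FUCA2 (-0.62 to 0.82), 0.32 for IGF2R (-0.50 to 1.13) and -0.50 for CD63 (-1.77 to 0.77), with adjusted p of 0.943 to 0.984. Without HS53 the value of IGF2R was 0.014, and without HS37, which was kept as HS by its label but is not in the study's subtype table, that of FUCA2 was 0.046. The intervals leave room for differences of more than 2-fold in ARSA, IGF2R, CD63 and NEU1. EdgeR called 0.0% of 19853 genes and 0 members, with 797 genes and 0 members at an unadjusted p under 0.05, and DESeq2 called 1 gene (0.00504%) and 0 members.

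In culture, DC3F9 held more RNA of every member than each of the 3 HS lines, although edgeR called none. All 3 lines lay below the 1 comparison library in 18.9% of the 16541 genes with at least 40 counts. NEU1 was at 179 CPM in DC3F9 and at 123, 62.5 and 114 CPM in BD, OD and PJ. ARSA was at 181 CPM in DC3F9 and at 121, 94.1 and 34.0 CPM in the lines, the lowest in PJ. FUCA2 was at 112 CPM in DC3F9 and at 79.3, 61.0 and 56.5 CPM. The lines differed widely from each other in ARSA, with PJ at 0.187 and BD at 0.669 of the DC3F9 level.

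IGF2R was at 749.8 CPM in DC3F9 and at 295, 165 and 570.1 CPM in BD, OD and PJ, the closest to DC3F9 being PJ. CD63 was at 936 CPM in DC3F9 and at 384, 328 and 369 CPM, the 3 lines lying near each other. The log2FC of CD63 was -1.85 (SE 0.32, interval -2.68 to -1.02, adjusted p = 0.117 in edgeR's quasi-likelihood test), and DESeq2 called it at -1.89 (SE 0.48, adjusted p = 0.00187). For the other members the log2FC was -1.32 for NEU1 (SE 0.47), -1.60 for ARSA (SE 0.70), -1.24 for FUCA2 (SE 0.38) and -1.60 for IGF2R (SE 0.68), with adjusted p of 0.249 to 0.37 in edgeR. The median log2FC of the members was -1.60, beside 0.23 for all genes tested.

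EdgeR called 0.0% of 18121 genes and 0 members for the cell lines, with 2788 genes and 3 members (NEU1, FUCA2 and CD63) at an unadjusted p under 0.05, while DESeq2 called 1796 genes (9.91%) and 1 member. DC3F9 is 1 library, assumed to vary like the 3 lines, and it differs from them in breed and origin as well as in malignancy, which cannot be told apart. Class II antigen presentation genes summed to 2869 CPM in DC3F9 and to 16.9 to 816 CPM in the lines, and phagocyte genes to 1081 CPM in DC3F9 and 728 to 1358 CPM in the lines. Their part in the differences of the members was not tested.

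Ordered by CPM, FUCA2 was highest in DC3F9 (112 CPM), then in the tumors (median 79.9 CPM), the cell lines (61.0), the liver control (39.5), the lung and spleen controls and blood (12.1). All 3 lines lay inside the tumor range. After TMM scaling the liver control, at 107 CPM, stood above 17 of the 18 tumors and all 3 lines, so its place in the order turns with the scaling. CD63 had the order DC3F9 (936), tumors (697), lines (369), lung control (348), spleen control (247), blood (172) and liver control (48.4), with all 3 lines inside the tumor range and, for OD, below the lung control. IGF2R led in DC3F9 (749.8), followed by blood (326) and the lines (295), which overlapped, and by the tumors (136), which overlapped the lung and spleen controls. The liver control came last for IGF2R by library total, at 64.8 CPM. After TMM scaling it was at 176 CPM, above 13 of the 18 tumors. NEU1 and ARSA were also highest in DC3F9 among the group medians and, by library total, lowest in the liver control, with tumors, lines and the other controls overlapping in between. For NEU1 the liver control rose to 99.2 CPM with TMM scaling, above the 3 blood controls at 73.7 to 86.8 CPM. Levels in culture and in tissue come from separate tables and, by the study's methods, separate kits, and were not tested against each other.

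Across the 18 tumors NEU1 and FUCA2 varied least by both measures used, while ARSA and CD63 had the widest SD and CD63 the widest ratio of highest to lowest. The SD of log2 CPM after TMM scaling was 0.49 for NEU1, 0.54 for FUCA2, 0.63 for IGF2R, 0.91 for CD63 and 0.93 for ARSA, beside a median of 1.00 over 19028 genes. The highest tumor exceeded the lowest by 3.38 times for NEU1, 3.40 for FUCA2, 6.43 for ARSA, 7.63 for IGF2R and 9.63 for CD63. NEU1 was less variable than all but 10.7% of genes, and FUCA2 than all but 15.1%. These ranks were not adjusted for level, and the mean log2 CPM of NEU1 was above that of 92.8% of genes and of FUCA2 above 88.0%.

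Of the 10 pairs of members, NEU1 and ARSA were most alike, with a Pearson r of 0.74 and a Spearman rho of 0.71 of log2 CPM over 18 tumors. The r was 0.59 without HS27 and HS4, the tumors farthest from the median of NEU1, 0.66 without HS27 and HS29, and 0.73 over the 15 HS tumors. The r of the other pairs lay between -0.30 (ARSA and IGF2R) and 0.45 (ARSA and CD63), so the members did not vary as a group. These values are descriptions over tumors that share their library preparation. HS29, HS27, HS36 and HS4, all high in both genes after TMM scaling, were also low on the first principal component, at -172.0, -139.9, -75.6 and -29.1. By library total the NEU1 of HS29, 107 CPM, was below the tumor median. HS14, at -41.9, had the lowest NEU1 by library total, 60.4 CPM. After TMM scaling it was at 79.3 CPM, above HS33 (70.2 CPM) and HS50 (71.0 CPM). The part of that component in the r of NEU1 and ARSA was not tested.

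**Figure D4:**
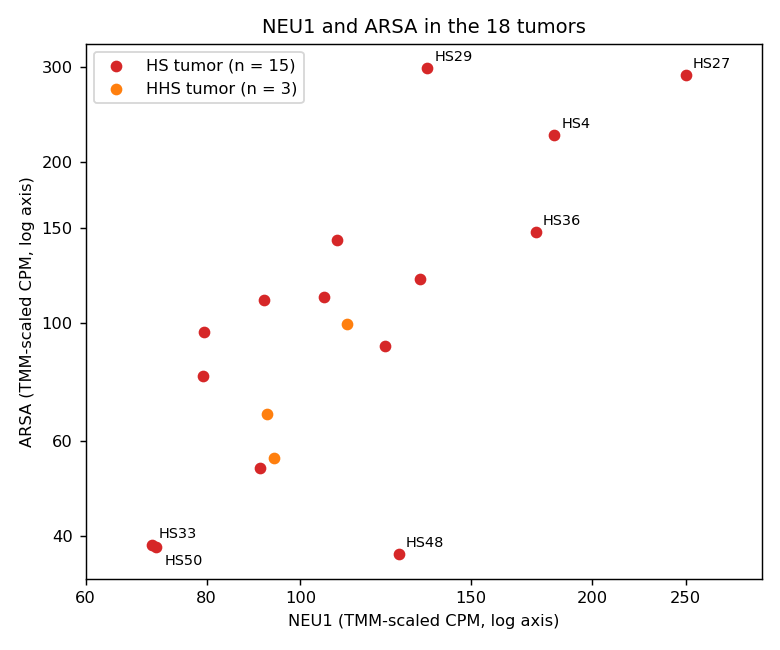
NEU1 against ARSA in TMM-scaled CPM (both axes log), 1 point per tumor (red HS, orange HHS). HS27, HS4, HS36 and HS29 lie at the upper right, HS33 and HS50 at the lower left, and HS48 has ARSA of 36.9 CPM at NEU1 of 126 CPM.

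Among 615 named genes with a mean of at least 3 log2 CPM over the tumors, the pattern most like that of NEU1 was that of HSD17B8 (r of 0.80 over 18 tumors, 0.65 without HS27 and HS29) and RGL2 (0.79, and 0.74 without them). ARSA was most like SELENOO (0.91) and LMF2 (0.90), with r of 0.86 and 0.87 without HS27 and HS29. FUCA2 was most like NUS1 (0.76, and 0.83 without them) and UBQLN1 (0.74, and 0.77). IGF2R was most like MAP3K5 (0.69, and 0.59 without them) and SNTB1 (0.66, and 0.54), and CD63 like GRINA (0.86, and 0.87) and PYM1 (0.83, and 0.81). The named genes are those of the study's readable tables and not all genes, so closer patterns may exist among the others. LMF2 (ENSCAFG00000000572) has an identifier number close to that of ARSA (ENSCAFG00000000566), and PYM1 (ENSCAFG00000000076) to that of CD63 (ENSCAFG00000000064). Coordinates were not used here, so the positions of these and the other matches were not compared with those of the members. The part of chromosomal position or copy number in these r was not tested.

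The other lysosome and endosome genes taken here were 18 in number, of which 17 passed the filter in tumors against controls. EdgeR called 1 of them. At an adjusted p under 0.05, whatever the fold, 6 had a positive log2FC and 1 a negative one, beside 13% and 14.2% of all genes tested. Without HS27 and HS29 these counts were 5 and 2, beside 12% and 14.8%. Their median log2FC was 0.39. SMPDL3A, a secreted phosphodiesterase related to acid sphingomyelinase, was the one called, at 139 (HS51), 1011 (median) and 5891 CPM (HS48) in the tumors. It was at 13.8, 21.2 and 24.6 CPM in blood, 30.4 in spleen and 42.3 CPM in lung, so every tumor exceeded every control. Its log2FC was 6.07 (SE 0.96, adjusted p = 1.1e-04 in edgeR), and without blood control replicate 1, 2 or 3 in turn its adjusted p no longer passed 0.0005.

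Of the 5 hydrolases, PPT2, a palmitoyl-protein thioesterase, was lowest, with a log2FC of -0.75 (SE 0.26, adjusted p = 0.0354 in edgeR's quasi-likelihood test). RNASET2, a ribonuclease of the lysosome, was at 1.18 (SE 0.40, adjusted p = 0.0325 in edgeR), and neither gene passed the fold cutoff. CTSL had at most 0.0784 CPM in any tumor and was not tested, while CTSV was at 1.39 (SE 0.91). Both are names of the human homolog of a dog identifier, and reads of such near copies can be split.

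Of the 3 pump and membrane genes, ATP6V1C1, a subunit of the proton pump that acidifies the lysosome, was highest, with a log2FC of 1.44 (SE 0.31, adjusted p = 0.00168 in edgeR's quasi-likelihood test). LAPTM4B was lowest at -2.82 (SE 1.12, adjusted p = 0.0628), a value that rests on 23.9 CPM in the lung control, since blood held 0 CPM, the spleen control 0.739 and the tumors up to 2.27 CPM. Of the 10 sorting genes, BLOC1S1, a subunit of a complex for lysosome-related organelles, was highest at 1.47 (SE 0.53, adjusted p = 0.0397), and RAB5B, a small GTPase of early endosomes, was lowest at -0.83 (SE 0.42, adjusted p = 0.145). AP3S1 (0.76), BLOC1S1 and WASHC5 (1.17) had an adjusted p under 0.05, and the other 7 sorting genes did not. Without HS27 and HS29 BLOC1S1 was at 1.1 (SE 0.43, adjusted p = 0.0634) and VPS52 at -0.67 (SE 0.23, adjusted p = 0.0343 in edgeR).

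Between HHS and HS tumors 0 of 17 genes of this list were called, with log2FC from -1.08 (BLOC1S1) to 0.45 (CTSV) and 0 at an unadjusted p under 0.05. The other ends of the subgroups were PPT2 at -0.49, ATP6V1C1 at 0.34, ATP6V1G2 at -0.66 and RAB5B at 0.33. Between lung and liver tumors 0 of 18 were called, with log2FC of 0.98 for CTSL (at most 0.0784 CPM in any tumor) and -0.73 for SMPDL3A among hydrolases, 0.33 for ATP6V1C1 and -0.43 for ATP6V1G2, and 0.29 for RAB5B and -0.70 for VTA1 among sorting genes. VTA1 had the only unadjusted p under 0.05 in edgeR, 0.034.

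In the cell lines 0 of 16 tested genes were called by edgeR and 0 by DESeq2, and 2, SMPDL3A and RNASET2, had an unadjusted p under 0.05 in edgeR. SMPDL3A was at 1985 CPM in DC3F9 and at 1348, 657 and 1076 CPM in BD, OD and PJ, a log2FC of -1.42 (SE 0.47, adjusted p = 0.28 in edgeR). RNASET2 was at 188 CPM in DC3F9 and at 103, 149 and 90.9 CPM in the lines, a log2FC of -1.18 (SE 0.42, adjusted p = 0.303 in edgeR). All 4 hydrolases tested had a negative log2FC, from -1.42 (SMPDL3A) to -1.01 (PPT2), while the sorting genes ran from -0.62 (RAB5B) to 0.51 (VTA1) and the pump genes from -0.46 (ATP6V1C1) to 0.74 (ATP6V1G2).

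**Figure D5:**
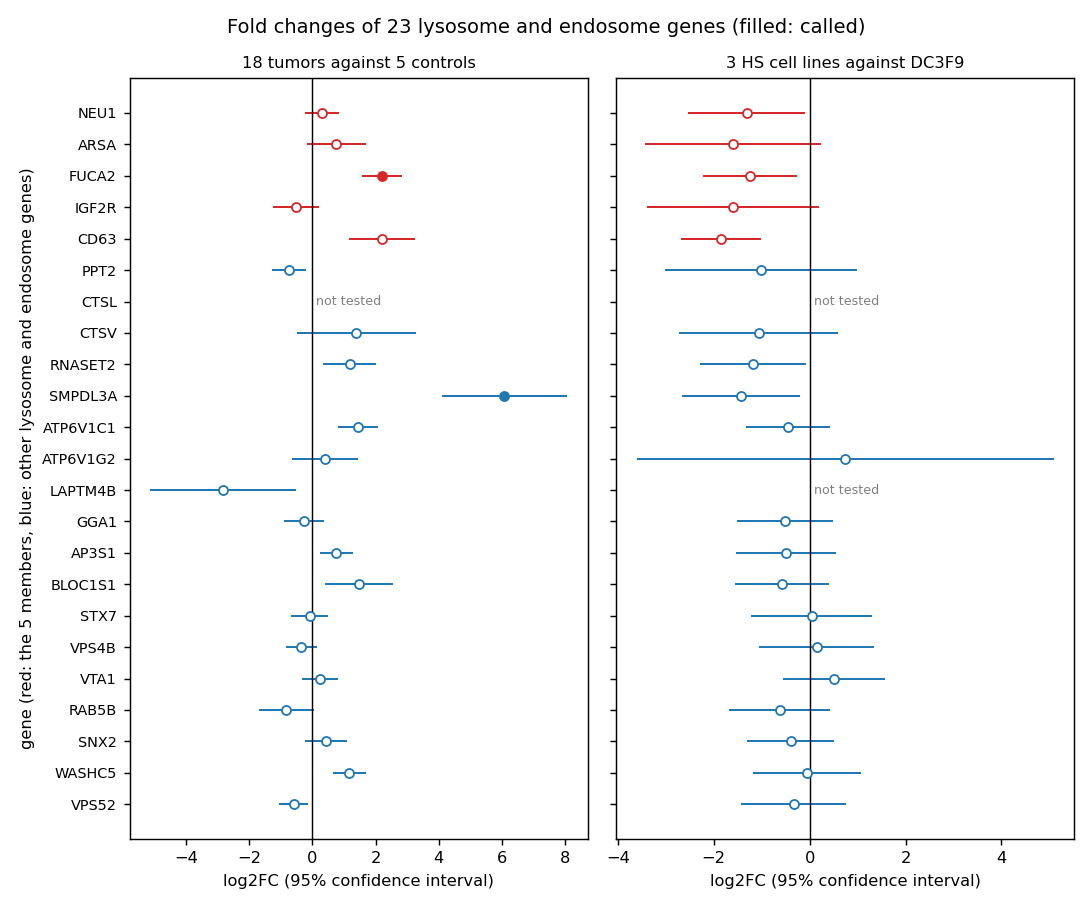
log2FC with 95% confidence intervals in edgeR of the 5 members (red) and 18 other lysosome and endosome genes (blue; CTSL was tested in neither panel and LAPTM4B not on the right), for 18 tumors against 5 controls (left) and 3 HS cell lines against DC3F9 (right); filled points were called. FUCA2 at 2.20 and SMPDL3A at 6.07 are the filled points on the left, and no point is filled on the right, where the 5 members lie between -1.85 and -1.24.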

How the data were processed

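RNA was measured in 18 tumors, 6 controls, 3 HS cell lines and DC3F9. Per the labels and the study's methods, the authors used cutadapt 3.7 for trimming, STAR 2.7.10a for alignment to CanFam3.1 and HTSeq 2.0.0 for gene counts. Tumor libraries were depleted of ribosomal and globin RNA. For the cultured cells the methods give an mRNA kit, while the labels describe a different kit, for total RNA. The deposited values were raw counts per gene, with no normalization and 0 columns of other samples. The annotation release and strand option are not given in the sources used here.

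CPM were counts scaled to each library's total. Tests ran on all genes with R 4.3.3 and edgeR 4.0.16 (TMM factors, filterByExpr with a minimum count of 10, quasi-likelihood test, Benjamini-Hochberg adjustment), on tumors and cultured cells apart. The cutoffs were an absolute log2FC of 1.5 and an adjusted p of 0.0005 for tumors against controls or 0.05 otherwise. DESeq2 1.42.0 was an alternative, as were other scalings, filters, controls and left-out libraries. Log2 CPM used a prior count of 2. The tests were also run on simulated counts that had the same spread for every gene. This does not imitate controls of mixed tissue and breed, and no result given here rests on it. Descriptions and figures used Python 3.11.15, numpy 2.4.6, pandas 2.3.3, scipy 1.17.1 and matplotlib 3.10.9; limma 3.58.1 was loaded by edgeR.

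Groups came from the labels, and replicate numbers followed deposit order. The most similar libraries still had a chi-square of 721 per gene, so none was a duplicate. A floor of 3 counts was 0.0366 CPM in DC3F9, covering counting error only. Tables paired 1126 identifiers with a name, 1025 of them a dog symbol; the RefSeq table matched 5 of 5 members, and coordinates and sequences were not used here. Some genes of the lysosome list are not reported here. Outside the members, the genes named were those called in a comparison, the highest and lowest log2FC of each subgroup, and the 2 genes most like each member; genes named at an adjusted p under 0.05 (RNASET2, AP3S1, WASHC5 and VPS52) and PEX3 were named after their values were seen. Members, lists, markers and alternatives were chosen with earlier results of these data known, and leaving out HS51, or HS27 and HS29, was added after seeing the data.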

Additional observations from a re-analysis of the deposited data

Results flagged for a closer look

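FUCA2 in the liver control was at 39.5 CPM, above the 9.98 to 28.6 CPM of the 5 controls used in the tests, and stood out because that library enters no main comparison. After TMM scaling it was at 107 CPM, against 36.6 to 147 CPM in the tumors. The liver library had a TMM factor of 0.368 and 4615 CPM of the hepatocyte gene PLG, and the part of its composition in this value was not tested. A test for a single far value among 4 to 10 samples was run 15 times on the members and found 0, where chance gives about 1 in 20.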

How the results depend on the processing

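Among the members, 1 was called in tumors against controls; DESeq2 and an adjusted p cutoff of 0.05 (which calls 17.8% of all genes) each called 2, and 0 were called with spleen and lung controls only, with all 6 controls, or in HHS tumors only, a fit that called 0.0% of 18643 genes. Of the other lysosome and endosome genes 1 was called, and 0 with spleen and lung controls only, in HHS tumors only, and without blood control replicate 1, 2 or 3 (0 to 1 over all left-out libraries). In the cell lines DESeq2 called 1 member, where edgeR called 0. Signs turned for NEU1 (-0.062) and IGF2R (0.86) with spleen and lung controls only, for FUCA2 in HHS against HS with lung and liver tumors only (-0.040) and without HHS tumor replicate 2 (-0.020, with up to 0.17 without another HHS tumor), and for NEU1 (-0.10) and ARSA (-0.19) in lung against liver tumors without HS27 and HS29; the cause was not tested. Of 200 values of single members under an alternative, 188 kept their direction and side of the cutoff, 6 reversed, 3 were weaker and 3 stronger. DESeq2 moved the median log2FC of all genes in tumors against controls from -0.0056 to -0.12. No paired analysis was possible because replicate numbers only follow deposit order. The 3 HHS tumors, the single tissue controls and the 1 DC3F9 library limit the precision of these values.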

Other observations

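Of the 5 members and 18 other lysosome and endosome genes, 4 (17.4%) had both HS27 and HS29 below the other 16 tumors in CPM by library total. For 0 of them both were above, beside 12.7% (below) and 2.24% (above) of 19028 genes. IGF2R was one of the 4, at 46.0 CPM in HS27 and 78.7 CPM in HS29, against 89.0 to 351 CPM in the other tumors. The others were RAB5B, at 1.77 and 1.27 CPM against 6.14 to 37.5 CPM, AP3S1, at 20.3 and 12.6 CPM against 24.0 to 51.1 CPM, and VPS4B, at 34.2 and 19.4 CPM against 37.2 to 97.8 CPM. The comparison was made after the pair was seen to stand apart, and carries no test.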
